A study of Mus musculus with 28 samples.

Results

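This comparison sets RNA of wild-type (WT) round spermatids against RNA of WT spermatocytes, the germ cells one developmental stage earlier. Its members were chosen by sample title: 3 arrays of WT round spermatids and 4 arrays of WT spermatocytes, out of 28 arrays in the series, which profiled testis cells and polysomes of mice with and without the RNA helicase GRTH (gene Ddx25). Both groups came from adult male C57BL/6 mice of wild-type genotype with no treatment given in the labels, and the cells were separated by centrifugal elutriation, a sorting by size and density. A further pair of groups, used at the end, were GRTH-null (KO) round spermatids (3 arrays) and KO spermatocytes (4 arrays) from adult males of the same strain. RNA was read on one-colour arrays, on which each gene is measured by 1 or more probe sets and the value is a signal intensity.

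Spermatocytes are the cells in meiosis. They hold homologous chromosomes together with the synaptonemal complex, recombine their DNA, and silence the X and Y chromosomes during meiotic prophase. After both meiotic divisions the haploid round spermatid builds the acrosome, the enzyme-filled cap used at fertilisation, begins the flagellum, and stores mRNAs for the later steps in which histones give way to transition proteins and protamines. Textbook accounts place much of this under the transcription factor CREM.

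Of the 18193 genes represented, 9097 had a mean signal at or above the median of these 7 arrays and were tested. Round spermatids differed from spermatocytes at an adjusted p under 0.05 in 7953 of them (87.4%), with 3307 higher (36.4%) and 4646 lower (51.1%). With nearly every gene past the test, a change is described here as a rise or fall of at least 2-fold unless a smaller one is stated. On that rule 4215 genes changed (46.3%): 1902 rose (20.9%) and 2313 fell (25.4%). The log2 difference is that of round spermatids minus spermatocytes on log2(signal + 16), followed by its standard error, and its median over all genes tested was -0.24. Signals written with ± are means with their SD (n = 3 round spermatid and 4 spermatocyte arrays). Of the 1902 rises 395 were in genes that reached the signal minimum in round spermatids alone, and of the 2313 falls 565 in genes that reached it in spermatocytes alone, so these entered the test through the group where they were high. Of 232 genes named in this comparison, 212 changed at least 2-fold. The signals of the groups overlapped in 0 of these 212, and their largest adjusted p was 0.00042. Named genes were chosen in part by small adjusted p, and the 15 largest rises and falls only where the groups did not overlap. These figures thus follow largely from that choice. Over all genes tested the groups did not overlap in 85.8%. Of the 232 named genes 16 reached the signal minimum in round spermatids alone and 14 in spermatocytes alone.

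Arrays within a group were close but not evenly spaced. The SD of log2 differences over genes was 0.125 between spermatocyte arrays 1 and 2 and 0.124 between arrays 3 and 4, but 0.19 to 0.211 across these pairs. The free-text description of arrays 3 and 4 names a GRTH WT mouse and that of arrays 1 and 2 a WT mouse. In round spermatids it was 0.161 between arrays 1 and 2, against 0.264 and 0.281 for array 3. With the close arrays averaged, 7322 genes were called, and with only one pair of spermatocyte arrays 7681 or 7745. Nothing in the labels ties arrays to separate animals. The p-values thus reflect the spread among these arrays, which may be technical. Ratios of the 3' to the 5' actin control ran from 1.41 to 1.64 in round spermatids and 1.48 to 1.61 in spermatocytes. Those of the Gapdh control ran from 1.16 to 1.27 in round spermatids and 0.9 to 1.01 in spermatocytes.

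The cell labels were set against marker genes. Of 16 tested round spermatid markers 13 rose and 0 fell, with a median of 1.84. Sun5, which anchors the sperm head to the tail, read 7084, 6861 and 7028 in round spermatids, against 1704, 1646, 1622 and 1716 in spermatocytes. Cby2 (also called spermatid-associated protein) rose by 2.57 ± 0.07 and Spaca3, an acrosomal lysozyme-like protein, by 1.84 ± 0.05. Every round spermatid array was above every spermatocyte array for these genes. Of 18 tested spermatocyte markers 9 fell and 2 rose. Among those that reached the signal minimum in both groups 8 fell and 1 rose. Majin, which ties telomeres to the nuclear envelope in meiosis, read 189.9, 188 and 196 in round spermatids, against 956, 951, 950 and 973 in spermatocytes. Tex101, a surface protein of germ cells, fell to 1347 in round spermatids, against 5825 in spermatocytes (log2 difference -2.10 ± 0.07).

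Markers of elongating spermatids, a later stage, were also measured in both fractions. Of 18 tested, 17 rose with the arrays as scaled, and 11 under quantile normalization. Tex37 read 12869, 11519.7 and 11281 in round spermatids, against 1326, 1296, 1263 and 1282 in spermatocytes. Lelp1 had a mean signal of 15314 ± 1026 in round spermatids and 1920 ± 41.9 in spermatocytes. Prm1, the protamine that packs sperm DNA, averaged 42845 ± 8333 in round spermatids and 19331 ± 3726 in spermatocytes. The part of later cells in these differences was not tested. A lower value in a fraction can mean fewer cells of a type or less RNA per cell, which cannot be told apart in bulk RNA.

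Markers of somatic testis cells moved too. Of 7 tested Leydig cell markers 4 reached the signal minimum in spermatocytes alone, and of the other 3, 2 fell and 1 rose. The cholesterol side-chain cleavage enzyme Cyp11a1 read 41.9, 45.7 and 65.2 in round spermatids, against 629.6, 667, 592 and 645 in spermatocytes, and Cyp17a1, an androgen-synthesis enzyme, 329.7 ± 37.1 in round spermatids and 2764 ± 281 in spermatocytes. Fabp3, a fatty acid-binding protein, fell as well (-3.10 ± 0.10), while the lipoprotein receptor Scarb1 rose (1.25 ± 0.06). The summed signal of the Leydig list without Scarb1 was 1139 to 1217 in round spermatids and 6911 to 7439 in spermatocytes. Of 5 tested macrophage markers 4 (C1qb, Csf1r, Lyz2 and Adgre1) reached the signal minimum in round spermatids alone, so their direction was set by the choice of genes tested. C1qb, a complement subunit, read 665, 691 and 693 in round spermatids, against 49.1, 63.2, 47.8 and 44.5 in spermatocytes, and Csf1r, the macrophage growth-factor receptor, 422 ± 22.8 in round spermatids and 91.8 ± 9.51 in spermatocytes. Lyz2 differed by 2.54 ± 0.07 and the macrophage surface receptor gene Adgre1 by 1.05 ± 0.07. Aif1, which was above the minimum in both groups, rose (2.55 ± 0.10), and the list without Aif1 summed to 2704 to 2867 in round spermatids and 481 to 598 in spermatocytes. Whether these somatic cells account for any gene below was not tested.

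Of 7 tested Sertoli cell markers 3 rose at least 2-fold, namely the cystatins Cst12 (1.96 ± 0.07) and Cst9 (1.90 ± 0.07) and Aard (1.44 ± 0.07), of which Cst12 reached the signal minimum in round spermatids alone. Amhr2, the receptor of anti-Müllerian hormone, rose by less (0.61 ± 0.07). The Sertoli list summed to 6144 to 6467 in round spermatids and 3367 to 3712 in spermatocytes. Actg2, a smooth muscle actin, averaged 11813 ± 848 in round spermatids and 2057 ± 81.03 in spermatocytes. Acta2 differed by 0.63 ± 0.09 and Mylk, myosin light chain kinase, by -0.30 ± 0.09, which was near 0 under quantile normalization (-0.01). Egfl7, the one endothelial marker tested, averaged 373 ± 61.7 in round spermatids and 40.3 ± 22.2 in spermatocytes and so entered the test through round spermatids alone, and no red blood cell marker was tested. Of 7 tested spermatogonial markers 3 rose at least 2-fold, among them Uchl1 (1.02 ± 0.07) and Dmrt1 (1.12 ± 0.09). At any size 5 were higher, including Taf4b (0.63 ± 0.06), and 1 was lower, namely Id4 (-4.05 ± 0.12). The spermatogonial list without Id4 summed to 3865 to 4168 in round spermatids and 2032 to 2274 in spermatocytes.

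**Figure D1:**
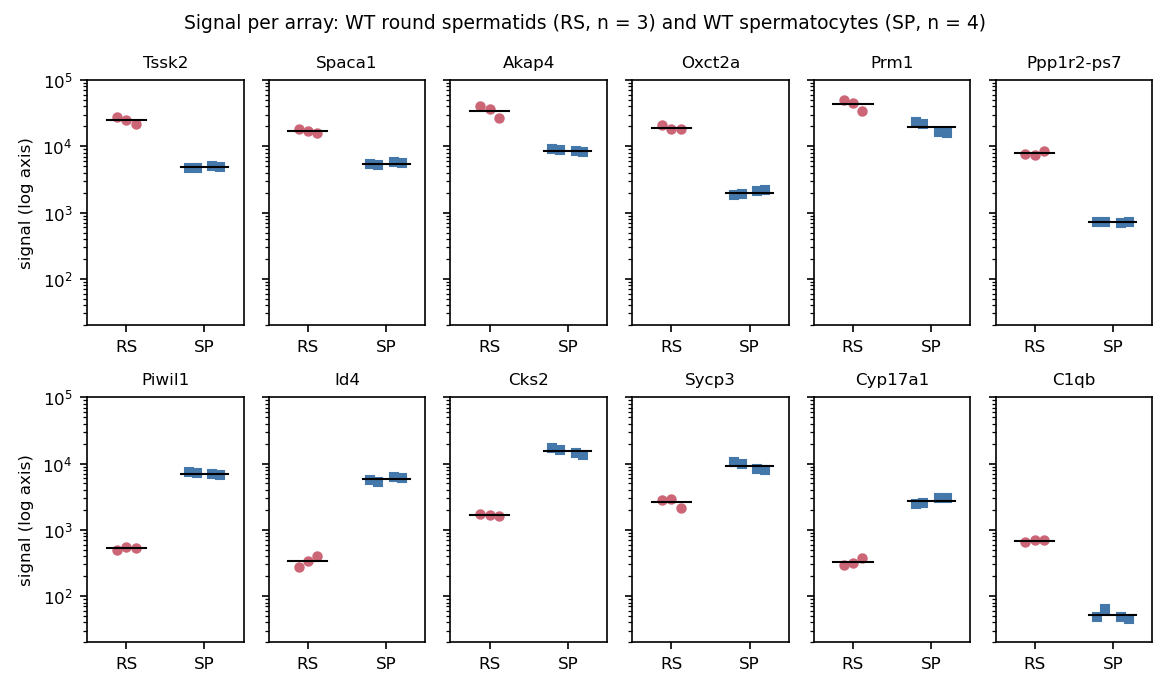
Signal (log axis) of 12 genes on each array, WT round spermatids (RS, 3 arrays, circles) left of WT spermatocytes (SP, 4 arrays, squares), with bars at the group means. No round spermatid array overlaps a spermatocyte array for any of the 12 genes, and Prm1 averages 19331 in spermatocytes.

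The 15 largest rises were led by a lysozyme and by genes of metabolism, centrosomes and membranes. Lyz1 read 354, 378 and 521 in round spermatids, against 40.00, 4.27, 3.95 and 1.90 in spermatocytes, so its rise (4.08 ± 0.37) starts at signals near the pseudocount and has a wide SE. Lyz1 and the macrophage marker Lyz2 are closely similar copies whose probe sets may read both. Nqo2, a quinone reductase, read 4186, 4086 and 4165 in round spermatids, against 308, 291, 252 and 283 in spermatocytes (log2 difference 3.80 ± 0.07). Its round spermatid arrays lay close together and far above every spermatocyte array. The sodium-glucose cotransporter Slc5a9 rose by 3.71 ± 0.21, the centriolar protein gene Spatc1 by 3.68 ± 0.09 and Cby3, a Chibby family member, by 3.63 ± 0.07. Retreg1, a receptor for turnover of the endoplasmic reticulum, averaged 5367 ± 441 in round spermatids and 446 ± 43.6 in spermatocytes.

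The remaining large rises ran from 3.59 ± 0.05 for the uncharacterised gene 1700008P02Rik to 3.42 ± 0.05 for Dlgap4, a scaffold protein. Paqr5, a membrane progestin receptor, read 13216, 12269 and 11318 in round spermatids, against 1114, 1089, 1119.6 and 1139 in spermatocytes. Every round spermatid array was far above every spermatocyte array. Klk1b8, a kallikrein, averaged 9491 ± 739 in round spermatids and 864 ± 92.7 in spermatocytes and the leucine-rich repeat gene Lrrc57 9394 ± 564 in round spermatids and 806 ± 26.3 in spermatocytes. Rundc3a (3.51 ± 0.13), Gm34703 (3.48 ± 0.08), Gm21283 (3.47 ± 0.07) and the X-linked Ppp1r2-ps7 (3.42 ± 0.06) completed the set. Lyz1, Slc5a9 and Rundc3a reached the signal minimum in round spermatids alone, so their direction was set by the choice of genes tested.

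The 15 largest falls included germ cell regulators of transcription, RNA and the centriole. Id4, an inhibitor of helix-loop-helix transcription factors known for spermatogonial stem cells, read 275, 343 and 403 in round spermatids, against 5653, 5336, 6326 and 5947 in spermatocytes (log2 difference -4.05 ± 0.12). Its round spermatid signal was far below every spermatocyte array. Piwil1 (MIWI), a piRNA-binding protein, read 495, 549 and 526 in round spermatids, against 7422, 7078, 7001 and 6772 in spermatocytes (log2 difference -3.72 ± 0.06). Ccp110, a cap protein of centrioles that blocks cilium growth, fell to 572 ± 32.8 in round spermatids, against 8694 ± 356 in spermatocytes. Sap30, a subunit of a histone deacetylase complex, fell by 3.74 on the log2 scale, and Fbxo3, a ubiquitin ligase subunit, by 3.75. The kinase gene Pim3 averaged 71.4 ± 38.1 in round spermatids and 1004 ± 129.7 in spermatocytes, and Fxyd1, a regulator of the sodium pump, 24.9 ± 7.49 in round spermatids and 489 ± 42.1 in spermatocytes.

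The uncharacterised gene 4930579G24Rik had the largest fall, with 369, 393 and 385 in round spermatids, against 7714, 7176, 7394 and 7101 in spermatocytes (log2 difference -4.21 ± 0.06). Kbtbd6, an adaptor of a ubiquitin ligase, had a difference of -4.12 ± 0.14, and the zinc finger gene Zfp389 one of -4.05 ± 0.21. Falls of -3.93 ± 0.08 for Dennd5b, an activator of Rab proteins, and -3.92 ± 0.18 for Meak7 were of the same order. So were those of Gm13889 (-3.99 ± 0.23), 4933404O12Rik (-3.79 ± 0.12) and 4931408D14Rik (-3.74 ± 0.07). The round spermatid signals of Gm13889, Meak7 and Fxyd1 averaged 20.1, 27.2 and 24.9, so the added 16 compresses their change. Kbtbd6, Zfp389, Gm13889, Dennd5b, Meak7, 4933404O12Rik, Pim3 and Fxyd1 reached the signal minimum in spermatocytes alone. Their direction was thus set by the choice of genes tested.

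**Figure D2:**
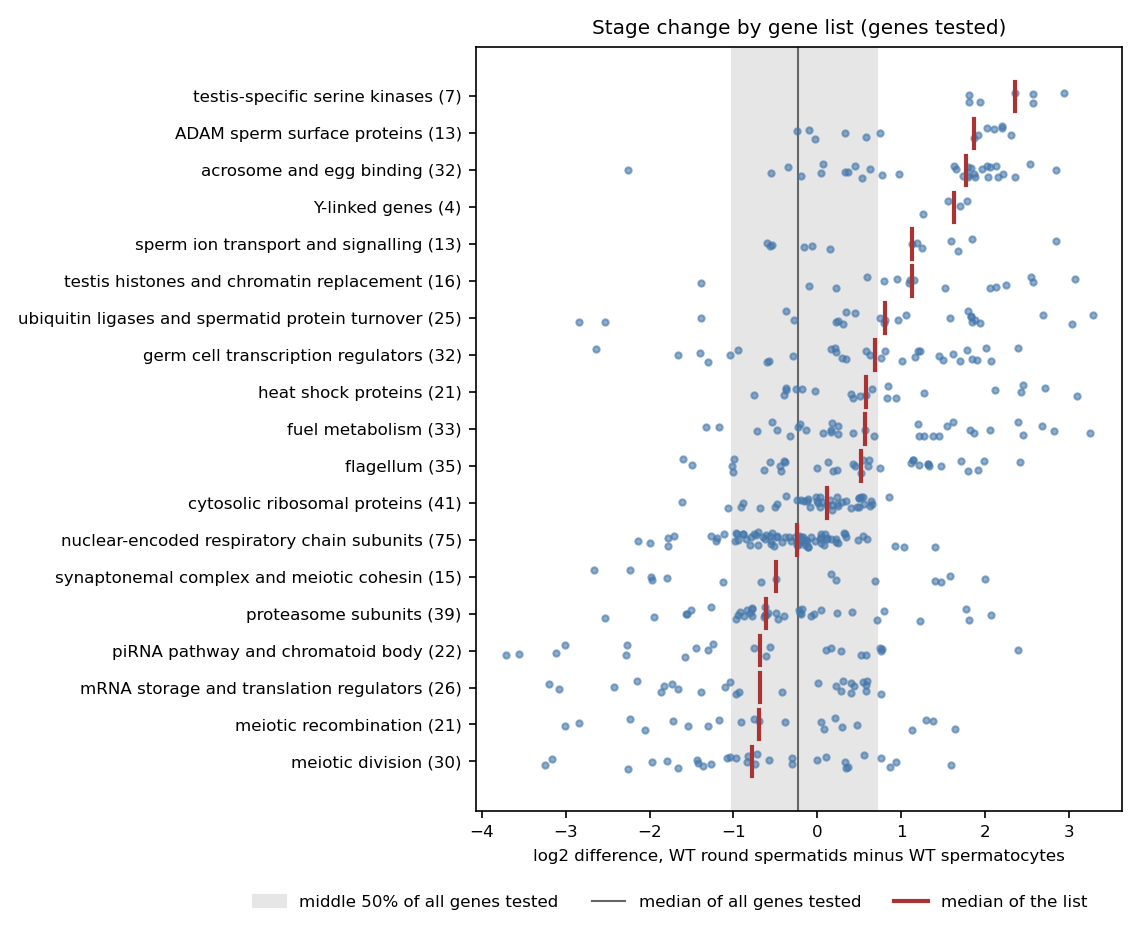
Log2 difference, WT round spermatids minus WT spermatocytes, of each tested gene (point) by gene list, ordered by list median (red bar), with the number of genes tested in parentheses. The grey band holds the middle 50% of all 9097 genes tested around their median of -0.24. The testis-specific serine kinases lie highest and the meiotic division genes lowest.

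Genes that build the meiotic chromosome axis moved in both directions. In the synaptonemal complex and cohesin list 4 of 15 tested genes rose at least 2-fold and 6 fell at least 2-fold, and the median log2 difference was -0.49. Sycp3, the core of the lateral element, read 2857, 2874 and 2151 in round spermatids, against 10369, 9869, 8365 and 7963 in spermatocytes (log2 difference -1.80 ± 0.13). Sycp2, its partner, averaged 2002 ± 207 in round spermatids and 7930.2 ± 404 in spermatocytes, the transverse filament gene Sycp1 differed by -1.12 ± 0.07, and Hormad1, which monitors unpaired axes, by -1.98 ± 0.14. Sgo2a, the shugoshin that protects centromeric cohesion, fell to 213 in round spermatids, against 1423 in spermatocytes (-2.67 ± 0.11), and Tex12, of the central element, fell too (-2.23 ± 0.13). The 4 rises were cohesin subunits and a central element gene. Rec8, the meiotic kleisin, averaged 2784 ± 542 in round spermatids and 979.5 ± 41.98 in spermatocytes, and Smc3 rose by 1.41 ± 0.09. Rad21 rose by 1.58 ± 0.14 on the probe set kept for it, but its other probe sets tested did not pass (0.13 and 0.24). Syce2 read 19606, 17916 and 15306 in round spermatids, against 4439.6, 4245, 4420.3 and 4412 in spermatocytes, higher on each round spermatid array than on any spermatocyte array.

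In the recombination list 4 of 21 tested genes rose at least 2-fold and 8 fell at least 2-fold, and the median log2 difference was -0.70. Of its 15 genes that reached the signal minimum in both groups 2 rose and 5 fell. The damage-signalling kinase Atr read 2086, 2289 and 2383 in round spermatids, against 11199, 10619, 10579 and 10020.1 in spermatocytes (log2 difference -2.23 ± 0.07). Its partners in silencing the sex chromosomes fell too: Topbp1 (-2.05 ± 0.09), the adaptor Mdc1 (-1.72 ± 0.07) and the histone H2ax (1245 ± 37.97 in round spermatids and 3664 ± 89.2 in spermatocytes). The crossover genes Mlh3 (-2.84 ± 0.13) and Ccnb1ip1 (-3.01 ± 0.16) had the widest falls, and Spo11, which makes the breaks, fell by 1.31 on the log2 scale. The 4 rises were Tex15 (5371 ± 134 in round spermatids and 1712 ± 95.2 in spermatocytes), the X-linked Tex11 (1.38 ± 0.12), Brca1 (1.30 ± 0.07) and the strand-exchange recombinase Dmc1 (1.13 ± 0.06). Tex11 and Dmc1 reached the signal minimum in round spermatids alone, with means of 119 and 133 in spermatocytes. Mlh3 reached it in spermatocytes alone, with a mean of 139 in round spermatids. The direction of Tex11, Dmc1 and Mlh3 was thus set by the choice of genes tested.

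Among genes of the meiotic divisions more fell than rose. Here 1 of 30 tested genes rose at least 2-fold and 12 fell at least 2-fold, and the median log2 difference was -0.78. Cks2, a small partner of cyclin-dependent kinases required for the first meiotic division in mice, read 1747, 1701 and 1615 in round spermatids, against 17150.5, 15741, 14623 and 13561 in spermatocytes (log2 difference -3.16 ± 0.08). Cdk2 averaged 413 ± 62.7 in round spermatids and 4038 ± 270 in spermatocytes and Cdk1 1030.3 ± 44.7 in round spermatids and 3295 ± 75.7 in spermatocytes. The chromosomal passenger Cdca8 (-2.26 ± 0.06) and its kinase Aurkb (-1.36 ± 0.06) fell, as did the checkpoint genes Mad2l1 (-1.97 ± 0.12), Bub3 (-1.79 ± 0.06), Bub1b (-1.43 ± 0.06) and Ttk (-1.07 ± 0.05). Cdc20, the activator of anaphase, fell by less (-0.58 ± 0.08). The single rise, beside 3 under quantile normalization, was the phosphatase Cdc25c (711 ± 68.7 in round spermatids and 232 ± 69.9 in spermatocytes).

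Most genes that replace histones rose. In this list 10 of 16 tested genes rose at least 2-fold and 1 fell at least 2-fold, and the median log2 difference was 1.13. Under quantile normalization 7 rose at least 2-fold and 1 fell, and 4 were called lower at any size. H2al2a, a spermatid histone variant that opens nucleosomes to transition proteins, read 20282, 18308 and 15071 in round spermatids, against 2122, 2131, 2077 and 2065 in spermatocytes (log2 difference 3.07 ± 0.10). H1f7, the spermatid linker histone, averaged 19217 ± 2236 in round spermatids and 4027 ± 235 in spermatocytes, and the acidic protamine relative Prm3 21644 ± 2134 in round spermatids and 3687 ± 186 in spermatocytes. Hmgb4, a chromatin repressor of spermatids, rose by 2.06 ± 0.12, the crotonyl-histone hydratase Cdyl by 2.14 ± 0.05 and the remodeller Chd5 by 1.53 ± 0.06. Tnp1 and Tnp2, the transition proteins, differed by 1.10 ± 0.14 and 1.10 ± 0.11, Prm1 by 1.15 ± 0.18 and Prm2 by 0.95 ± 0.10. Prm1 read 49974, 44876 and 33684 in round spermatids, against 23427, 21518, 16609 and 15771 in spermatocytes. Rnf8, the ubiquitin ligase that marks chromatin at damaged DNA, was the one member that fell at least 2-fold (251 ± 38.6 in round spermatids and 679 ± 18.2 in spermatocytes). The bromodomain gene Brdt, which reads acetylated histones, was higher by 0.22 ± 0.07 (-0.19 under quantile normalization), while another of its probe sets fell (-0.98). Its relative Brd2 did not pass (-0.10 ± 0.06, adjusted p = 0.15) and was lower under quantile normalization (-0.47).

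Genes of the acrosome rose in most cases. In the list of acrosome and egg-binding genes 19 of 32 tested genes rose at least 2-fold and 1 fell at least 2-fold, and the median log2 difference was 1.77. Among those that reached the signal minimum in both groups 17 rose and 1 fell. Spaca1, an acrosomal membrane protein needed to shape the acrosome, read 18434, 17230 and 15635 in round spermatids, against 5395, 5289, 5797 and 5509 in spermatocytes (log2 difference 1.63 ± 0.07). Acrv1, a matrix protein of the acrosome, averaged 17568 ± 1769 in round spermatids and 5017 ± 146 in spermatocytes, and Spaca7 rose by 2.13 ± 0.05. Of the egg-binding genes, Izumo1, the ligand of egg fusion, averaged 7717 ± 195 in round spermatids and 2210 ± 164 in spermatocytes, and Spam1, a hyaluronidase, rose by 2.02 ± 0.07. The endoplasmic reticulum chaperones Calr3 (2.85 ± 0.07) and Pdilt (2.06 ± 0.06), which fold sperm surface proteins, rose with them.

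The cytoskeleton around the acrosome rose as well. Calicin (Ccin), of the sperm head calyx, read 7309, 6899 and 6802 in round spermatids, against 1469.7, 1553, 1501 and 1468 in spermatocytes (log2 difference 2.21 ± 0.05). The cylicins Cylc1 (2.54 ± 0.11) and Cylc2 (2.36 ± 0.08), the actin capper Capza3 (1.96 ± 0.09) and the actin-related Actl7a (2.15 ± 0.08) moved the same way. Cylc1 averaged 151 in spermatocytes and reached the signal minimum in round spermatids alone, so its direction was set by the choice of genes tested. The one fall was Gopc, a Golgi protein whose loss in mice leaves sperm without an acrosome, which averaged 258 ± 22.3 in round spermatids and 1293 ± 76.03 in spermatocytes.

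Genes of the flagellum moved in both directions. Of its list 13 of 35 tested genes rose at least 2-fold and 4 fell at least 2-fold, and the median log2 difference was 0.52. Under quantile normalization 6 rose and 4 fell at least 2-fold. The fibrous sheath scaffold Akap4, encoded on the X chromosome, read 40560.1, 36195 and 27069 in round spermatids, against 9229, 8696, 8411 and 8169 in spermatocytes (log2 difference 1.98 ± 0.13). Its partner Akap3 averaged 34110.3 ± 5652 in round spermatids and 13454 ± 879 in spermatocytes, and Ropn1, which binds both, rose by 1.72 ± 0.10. Odf1, the main outer dense fibre protein, rose by 1.32 ± 0.11, Odf3 by 1.91 ± 0.07, and Smcp, of the mitochondrial sheath, by 1.31 ± 0.11. Septin4, of the ring between midpiece and principal piece, rose by 2.41 ± 0.06, and Spag6, of the central apparatus, by 1.79 ± 0.09. Of further genes of the axoneme and its assembly, the tektins Tekt2 (1.15 ± 0.06) and Tekt4 (1.12 ± 0.06) and the transport gene Ift172 (1.14 ± 0.08) rose, though by less than 2-fold under quantile normalization (0.61, 0.64 and 0.61). The 4 falls were in genes of the axoneme and of ciliary transport as well. Dnah1, an inner-arm dynein chain, averaged 1122 ± 125 in round spermatids and 3421 ± 300.4 in spermatocytes, but its other probe set read 736 in round spermatids, against 618 in spermatocytes (0.24). Ccdc40, which spaces axonemal repeats, fell by 1.49 on the log2 scale, and Dnah8, an outer-arm dynein chain, had a difference of -1.02 ± 0.08. Ift20, a carrier from the Golgi to the cilium, was at the 2-fold line (-1.002 ± 0.10), and Iqcg just short of it (-0.998 ± 0.07).

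All 7 genes of the testis-specific serine kinase list were tested and rose at least 2-fold (median 2.36). The list holds 6 kinases that act in spermatids and sperm and their substrate Tsks. Tssk2 read 27633, 24823 and 21602 in round spermatids, against 4727, 4633, 4960 and 4839 in spermatocytes (log2 difference 2.36 ± 0.08). Tssk6, needed in mice for histone removal, averaged 22560.2 ± 3012 in round spermatids and 3764 ± 68.3 in spermatocytes, Tssk3 20067 ± 2734 in round spermatids and 3337 ± 68.7 in spermatocytes and Tssk1 14889.5 ± 896 in round spermatids and 3877 ± 59.8 in spermatocytes. Tssk4 rose by 1.81 ± 0.06 and Tssk5 by 1.81 ± 0.07. Tsks had the widest difference, with 8153, 7793 and 9581 in round spermatids, against 1003, 1108, 1090.3 and 1152 in spermatocytes (log2 difference 2.94 ± 0.08).

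In fuel metabolism more genes rose than fell. Of the list 15 of 33 tested genes rose at least 2-fold and 2 fell at least 2-fold, and the median log2 difference was 0.57. Oxct2a, a testis enzyme of ketone body use, read 20735, 18410.2 and 18325 in round spermatids, against 1856, 1889, 2114 and 2170.4 in spermatocytes (log2 difference 3.25 ± 0.08). Along glycolysis, hexokinase Hk1 averaged 27377 ± 3479 in round spermatids and 8837 ± 421 in spermatocytes, and the aldolases Aldoart2 (2.45 ± 0.06), Aldoart1 (2.39 ± 0.11) and Aldoa (1.82 ± 0.06) rose. Gapdhs, the sperm glyceraldehyde phosphate dehydrogenase, averaged 31770.1 ± 4109.6 in round spermatids and 7596 ± 298 in spermatocytes and the pyruvate kinase Pkm 5309 ± 819.9 in round spermatids and 735 ± 77.8 in spermatocytes. The germ cell lactate dehydrogenase Ldhc (0.67 ± 0.15) and the phosphoglycerate mutase Pgam2 (0.57 ± 0.09) were higher by under 2-fold, and under quantile normalization their signs turned (-0.05 and -0.10). Acsbg2, an acyl-CoA synthetase, rose by 2.68 ± 0.08. Both falls were in mitochondrial genes of the germline, the testis cytochrome Cyct (3871 ± 276 in round spermatids and 9738 ± 774 in spermatocytes) and the ADP/ATP carrier Slc25a31 (-1.17 ± 0.10). The somatic cytochrome Cycs rose (1736 ± 148 in round spermatids and 743 ± 29.6 in spermatocytes).

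Among transcription regulators of germ cells 14 of 32 tested genes rose at least 2-fold and 5 fell at least 2-fold, and the median log2 difference was 0.69. Of those that reached the signal minimum in both groups 13 rose and 4 fell. Crem averaged 9753 ± 1044 in round spermatids and 5557 ± 382 in spermatocytes (log2 difference 0.81 ± 0.09), a rise of under 2-fold. At dimmer signals 2 other Crem probe sets were lower (-0.60 and -0.67), so its probe sets did not move as one. These 2 averaged 305 and 109 in round spermatids, against 463 and 181 in spermatocytes. Fhl5 (ACT), the coactivator of CREM, read 23905, 22067 and 17435 in round spermatids, against 5375, 5169, 4731 and 4589 in spermatocytes (log2 difference 2.08 ± 0.11). Kif17, the kinesin that carries that coactivator out of the nucleus, read 10614, 10054 and 9295 in round spermatids, against 1802, 1929.9, 1883 and 1929.8 in spermatocytes (log2 difference 2.39 ± 0.06). Both were higher on every round spermatid array than on any spermatocyte array. Spz1 (2.01 ± 0.11), Creb3l4 (1.84 ± 0.07), Sox5 (1.79 ± 0.15), Rfx1 (1.62 ± 0.10) and the X-linked TFIID subunit Taf7l (1.45 ± 0.06) rose.

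Of the regulators that fell, Mybl1 (A-MYB), which drives pachytene genes and piRNA precursors, read 198, 209 and 207 in round spermatids, against 1436, 1496, 1232 and 1294 in spermatocytes (log2 difference -2.64 ± 0.08). Ovol1 fell by 1.31 on the log2 scale and Sox30 by 1.04. Rfx4 averaged 898 ± 48.8 in round spermatids and 2871 ± 51.6 in spermatocytes, but its other probe set rose (0.91). Creb1, the somatic relative of CREM, fell (-1.40 ± 0.06), and 2 of its other probe sets rose (0.46 and 0.47). Tbpl1 (TRF2), a TATA-binding protein relative needed in mouse spermatids, did not pass on the probe set kept for it (16571 ± 1729 in round spermatids and 14377 ± 1853 in spermatocytes, adjusted p = 0.113, and -0.39 under quantile normalization), while its other probe set fell to 53.6 in round spermatids, against 1145 in spermatocytes (-4.08).

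CREM binds the cAMP response element, TGACGTCA, which reads the same on both strands. This motif lay in 3.18% of 2078 promoter windows of genes that rose at least 2-fold, in 3.19% of 2350 windows of genes that fell, in 3.4% of 9557 windows of all genes tested and in 1.79% of all 32851 windows (250 bases before to 50 after the start, RefSeq, GRCm38.p6). Windows were found for 1538 of the 1902 genes that rose and 1874 of the 2313 that fell. The shorter site TGACG or its complement CGTCA lay in 27.2% of windows of genes that rose, 32.9% of genes that fell and 32.2% of all tested. The full motif was in 0 of 18 windows of elongating spermatid markers. To show where it sits, the 250 bases before the start are given for the list members Kif17 (chr4:138262001-138262250, plus strand), Ccin (chr4:43983254-43983503, plus strand) and Izumo1 (chr7:45621561-45621810, plus strand), which rose. They are given also for Rad51c (chr11:87404507-87404756, minus strand), a strand-exchange gene that was lower by under 2-fold (-0.92 ± 0.09). Capitals mark the motif, whose last base lies 79 bases before the start in Kif17, 43 in Ccin, 89 in Izumo1 and 38 in Rad51c.
Kif17: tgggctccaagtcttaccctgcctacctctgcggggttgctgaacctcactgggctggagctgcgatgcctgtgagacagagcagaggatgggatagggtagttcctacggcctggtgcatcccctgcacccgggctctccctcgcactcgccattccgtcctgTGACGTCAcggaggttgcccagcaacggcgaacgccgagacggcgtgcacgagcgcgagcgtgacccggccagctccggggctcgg
Ccin: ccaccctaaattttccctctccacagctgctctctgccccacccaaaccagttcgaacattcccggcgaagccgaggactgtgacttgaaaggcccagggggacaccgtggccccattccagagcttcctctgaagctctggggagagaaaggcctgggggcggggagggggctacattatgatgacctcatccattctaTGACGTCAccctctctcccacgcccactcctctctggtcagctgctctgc
Izumo1: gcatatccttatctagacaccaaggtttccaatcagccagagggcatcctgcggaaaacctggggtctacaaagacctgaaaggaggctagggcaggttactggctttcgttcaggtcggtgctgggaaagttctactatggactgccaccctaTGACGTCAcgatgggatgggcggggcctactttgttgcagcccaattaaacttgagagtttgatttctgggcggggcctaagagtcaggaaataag
Rad51c: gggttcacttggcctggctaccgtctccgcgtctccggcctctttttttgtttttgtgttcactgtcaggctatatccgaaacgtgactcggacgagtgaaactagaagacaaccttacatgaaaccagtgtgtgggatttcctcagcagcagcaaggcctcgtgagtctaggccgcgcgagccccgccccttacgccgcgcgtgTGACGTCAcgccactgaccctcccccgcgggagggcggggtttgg
Each window holds the motif once, in the proximal part, in genes of either direction.

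Genes of the piRNA pathway, which makes small RNAs that guard the germline and regulate its mRNAs, fell more often than they rose. In this list 1 of 22 tested genes rose at least 2-fold and 10 fell at least 2-fold, and the median log2 difference was -0.68. After Piwil1, the widest falls were Tdrd5, a Tudor protein (221, 246 and 245 in round spermatids, against 2825, 2845, 3136 and 3107 in spermatocytes), and Pld6, the mitochondrial nuclease that cuts piRNA precursors (909.6 ± 54.7 in round spermatids and 7992 ± 327 in spermatocytes). Tdrd1 (-3.01 ± 0.06), Tdrd9 (-2.27 ± 0.06), the helicase Mov10l1 (-1.58 ± 0.08) and Piwil2 (MILI, -2.29 ± 0.08) fell too. The single rise was Kif17, which also moves along the chromatoid body, the RNA granule of spermatids. Ddx25, the helicase the series is about and a component of that granule, averaged 16692 ± 1551 in round spermatids and 14907 ± 1591 in spermatocytes and did not pass the test (log2 difference 0.17 ± 0.10, adjusted p = 0.145). Under quantile normalization its sign turned (-0.46).

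Regulators of mRNA processing, storage and translation had 11 of 26 tested genes lower at least 2-fold and 0 higher at least 2-fold (median -0.68). Cpeb2, a cytoplasmic polyadenylation protein, read 199.6, 192 and 179 in round spermatids, against 1978, 2053, 1778 and 1745 in spermatocytes (log2 difference -3.20 ± 0.08). Paip1, a partner of poly(A)-binding protein, averaged 100.1 ± 9.70 in round spermatids and 961 ± 46.9 in spermatocytes, and Elavl1 (HuR), a stabiliser of mRNAs, 219 ± 28.7 in round spermatids and 1236 ± 49.3 in spermatocytes. Paip1 reached the signal minimum in spermatocytes alone, so its direction was set by the choice of genes tested. Among list genes that reached it in both groups 10 fell and 0 rose at least 2-fold. The splicing regulators Ptbp2 (-2.15 ± 0.06), Khdrbs1 (Sam68, -1.83 ± 0.06) and Celf1 (-1.73 ± 0.09) fell, as did Boll (-1.87 ± 0.06), a translational regulator needed for mouse spermatids to develop. The other Boll probe sets differed by less than 2-fold (-0.95, -0.61 and -0.32, the last not called). Those of Celf1 ran from -1.61 to 0.19, the last not called.

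Of the ubiquitin ligase and turnover list 11 of 25 tested genes rose at least 2-fold and 3 fell at least 2-fold, and the median log2 difference was 0.81. Ubqlnl, a ubiquilin relative, read 11296, 10735 and 9468 in round spermatids, against 1105, 1141, 975 and 1034 in spermatocytes (log2 difference 3.28 ± 0.08). The testis ring finger genes Rnf133 (17583 ± 1599 in round spermatids and 2131 ± 49.7 in spermatocytes) and Rnf148 (2.69 ± 0.07) rose, as did Klhl10 (1.94 ± 0.09), a cullin adaptor whose loss makes male mice sterile. The ligase Siah1a fell (267 ± 5.001 in round spermatids and 2013 ± 84.9 in spermatocytes). Of 39 tested proteasome subunits 4 rose and 6 fell at least 2-fold (median -0.61), lower shares than over all genes tested. At any size 7 of the 39 were higher and 28 lower, or 5 and 30 under quantile normalization. Over all genes tested 36.4% were higher and 51.1% lower at any size. Psma8, the meiotic core subunit, read 1754, 1691 and 1511 in round spermatids, against 10725, 10034, 9221 and 8723 in spermatocytes, and the deubiquitinase Psmd14 fell by 1.95 on the log2 scale. Psmd10, on the X chromosome, rose (1.77 ± 0.06). The activator Psme3 rose on the probe set kept for it (2.07 ± 0.07), but another of its probe sets fell (-0.93).

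Of 21 tested heat shock genes 6 rose at least 2-fold and 0 fell. At any size 14 were called higher and 5 lower, or 10 and 9 under quantile normalization. Hspa1l, an HSP70 of spermatids, read 19103, 17499 and 17184 in round spermatids, against 1997, 1999, 2189 and 2171 in spermatocytes (log2 difference 3.09 ± 0.07). The co-chaperones Dnajb7 (2.71 ± 0.07), Dnaja4 (2.45 ± 0.09) and Dnajb8 (2.43 ± 0.07) rose. Hspa2, the HSP70 of spermatocytes, averaged 12843 ± 448 in round spermatids and 14684 ± 1711 in spermatocytes and did not pass (adjusted p = 0.0865). Under quantile normalization it was lower (-0.77). Of 41 tested ribosomal protein genes 0 rose and 2 fell at least 2-fold (0 and 5 under quantile normalization). The 2 were Rpl10a (-1.61 ± 0.06) and Rps25 (-1.07 ± 0.06). At any size 16 of the 41 were higher and 11 lower, or 1 and 33 under quantile normalization. Rpl27 was lower (-0.68 ± 0.05) and Rpl35 higher (0.55 ± 0.06, but -0.02 under quantile normalization). Of 75 nuclear-encoded respiratory chain subunits 2 rose and 9 fell at least 2-fold, or 1 and 18 under quantile normalization. Over all genes tested 20.9% rose and 25.4% fell at least 2-fold. At any size 11 of the 75 were higher and 45 lower, or 8 and 65 under quantile normalization. The subunits that fell at least 2-fold included the succinate dehydrogenase subunits Sdhd (638 ± 50.01 in round spermatids and 2857 ± 144 in spermatocytes) and Sdhc (-2.001 ± 0.08), the complex I subunit Ndufc2 (-1.79 ± 0.06) and the ATP synthase subunit Atp5g3 (-1.78 ± 0.06). Another Sdhc probe set fell by less (-0.64).

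Of 13 tested ADAM genes, membrane proteases and adhesion proteins, 7 rose at least 2-fold and 0 fell (median 1.86), and under quantile normalization 4 were called lower. Adam24 read 6719.6, 6875 and 7619 in round spermatids, against 1659, 1688, 1559 and 1629 in spermatocytes (log2 difference 2.10 ± 0.06). Adam25 (2.20 ± 0.07), Adam34 (1.86 ± 0.07) and Adam6a (2.20 ± 0.07) rose, and since such family members have close copies their probe sets may share transcripts. Of 13 tested ion transport and signalling genes 7 rose at least 2-fold and 0 fell, while 4 were called lower by less, or 5 under quantile normalization. Among those that reached the signal minimum in both groups 6 rose and 0 fell at least 2-fold. Atp1a4, the sodium pump subunit of sperm, read 11586, 11275 and 10605 in round spermatids, against 1400, 1481, 1638 and 1659 in spermatocytes (log2 difference 2.84 ± 0.08). The calcium channel subunits Catsper3 (1.85 ± 0.07) and Catsper1 (1.67 ± 0.09), the potassium channel Kcnu1 (1.25 ± 0.06) and the bicarbonate-regulated adenylyl cyclase Adcy10 (1.59 ± 0.05) rose.

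The X chromosome stood apart from every autosome in its counts. Of 165 tested X-linked genes 153 were higher in round spermatids (92.7%) and 9 lower (5.45%), and 138 rose at least 2-fold (83.6%). Of 8881 autosomal genes 35.2% were higher and 52% lower, and 19.7% rose at least 2-fold. The median log2 difference was 1.60 for the X chromosome and -0.26 over autosomes, where single chromosomes lay between -0.36 and -0.16. The median signal of the X-linked genes was 848 to 912 on round spermatid arrays and 294 to 315 on spermatocyte arrays. That of autosomal genes was 775 to 820 in round spermatids and 997 to 1061 in spermatocytes.

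The counts were also taken over other choices of genes. Among genes chosen by their spermatocyte signal alone, 105 of 129 X-linked genes rose at least 2-fold (81.4%), against 16.1% of autosomal genes. With no filter on dim genes, 355 of 617 X-linked genes were higher (57.5%) and 16 lower, against 31.7% higher and 30.9% lower of autosomal genes. Under quantile normalization 155 of the 165 were higher and 8 lower.

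The 5 X-linked genes of smallest adjusted p were Ppp1r2-ps7, Gm614, Eif1ax, H2ap and Ctag2. Ppp1r2-ps7, related to a phosphatase inhibitor, read 7691, 7364 and 8427 in round spermatids, against 712, 728, 686 and 732 in spermatocytes. Eif1ax, a translation initiation factor, averaged 7489 ± 206 in round spermatids and 1061 ± 38.2 in spermatocytes, and H2ap, a histone-related gene, 12204 ± 419 in round spermatids and 1606 ± 77.3 in spermatocytes. Gm614 rose by 3.20 ± 0.06 and Ctag2 by 2.71 ± 0.06. Of 5 tested Y-linked genes, 3 reached the signal minimum in round spermatids alone. The other 2 rose at least 2-fold, Uba1y, a ubiquitin-activating enzyme (1.55 ± 0.06), and Eif2s3y, an initiation factor subunit (1.78 ± 0.08). The zinc finger gene Zfy2 read 453, 512 and 398 in round spermatids, against 131, 157, 106 and 123 in spermatocytes. Usp9y, a ubiquitin protease, differed by 1.26 ± 0.09 and the noncoding gene Orly by 1.46 ± 0.08.

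Of the 12 X-linked genes that were not higher, 2 fell at least 2-fold, Tmem35a (105 ± 22.8 in round spermatids and 286 ± 18.8 in spermatocytes) and Tceal9 (173 ± 45.8 in round spermatids and 380.2 ± 68.8 in spermatocytes). Tmem35a reached the signal minimum in spermatocytes alone, so its direction was set by the choice of genes tested. Ndufa1, a complex I subunit, was lower by under 2-fold (-0.88 ± 0.11). In the WT Leydig fraction of the series (2 arrays) the mean signal was above that of spermatocytes for 10 of these 12 genes, and likewise for 140 of the 153 that were higher. Whether somatic cells in the fractions bear on these genes was not tested.

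**Figure D3:**
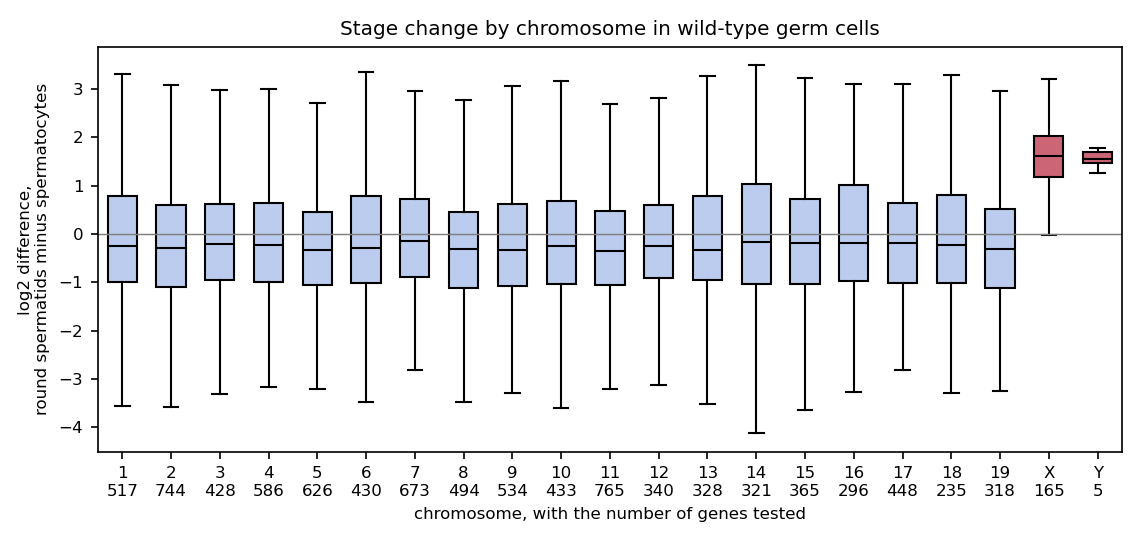
Log2 difference, WT round spermatids minus WT spermatocytes, by chromosome with the number of genes tested below each name. Boxes span the quartiles with the median as a line, and whiskers reach the farthest value within 1.5 box lengths. Autosomal medians lie between -0.36 and -0.16, those of X and Y at 1.60 and 1.55.

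Several X-linked housekeeping genes have autosomal relatives that are expressed in meiosis, when the X chromosome is silent. Of 16 such pairs listed, 6 had both genes tested, and in 5 of these the X-linked gene had the larger difference. At any size 5 of the 6 X-linked genes were higher and 1 lower, while of 13 tested autosomal relatives 7 were higher and 5 lower. Over all genes tested 36.4% were higher and 51.1% lower. Of the 19 tested genes of the listed pairs 7 rose and 4 fell at least 2-fold. Among those that reached the signal minimum in both groups 6 rose and 4 fell. At any size 12 of these 19 were higher and 6 lower, or 9 and 8 under quantile normalization. Cstf2, a cleavage factor of mRNA 3' ends, read 2430.5, 2396 and 1974 in round spermatids, against 503, 541, 626 and 675 in spermatocytes (log2 difference 1.93 ± 0.12). Its autosomal relative Cstf2t read 1477, 1516 and 1603 in round spermatids, against 4967, 4885, 4863 and 4833 in spermatocytes (log2 difference -1.66 ± 0.05). These moved in opposite directions. Likewise the X-linked cullin Cul4b rose (1.95 ± 0.06) and the autosomal Cul4a fell (-1.79 ± 0.06). Utp14a, of ribosome assembly, rose by 1.66 ± 0.08 and its retrogene Utp14b by 0.25 ± 0.05. Phosphoglycerate kinase was the exception to the order, since the testis form Pgk2 (1.54 ± 0.12) rose beside the X-linked Pgk1 (1.38 ± 0.11). Ubl4b, a ubiquitin-like gene whose X-linked relative was not tested, read 14914, 13459 and 13575 in round spermatids, against 1773, 1847, 1885 and 1959 in spermatocytes.

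Probe sets of 1 gene often moved in opposite directions. Of 4156 genes with several probe sets tested, 700 had 1 called higher and another called lower (16.8%), and in 121 both differences were at least 2-fold (2.91%). Different probe sets can read different transcript ends, and the end that each reads was not determined here. Mtfr1, a mitochondrial fission regulator, had a probe set at 9128 ± 408 in round spermatids and 3385 ± 84.5 in spermatocytes (1.43 ± 0.06) and another at 165 ± 10.6 in round spermatids and 2209 ± 209 in spermatocytes (-3.62 ± 0.09). For Rnf138, a ubiquitin ligase of germ cells, they averaged 16987 ± 1263 in round spermatids and 4751 ± 152 in spermatocytes (1.83 ± 0.07) and 468 ± 17.1 in round spermatids and 3625 ± 178 in spermatocytes (-2.91 ± 0.07). Both genes had a probe set that rose and another that fell.

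Eif4e, the cap-binding translation factor, had 4 probe sets tested. One averaged 5078 ± 432 in round spermatids and 542 ± 7.10 in spermatocytes (3.19 ± 0.07) and another 212 ± 21.4 in round spermatids and 759 ± 68.8 in spermatocytes (-1.77 ± 0.10). The one kept for the gene changed little (0.30). Afap1, an actin-binding adaptor, had a probe set at 453 ± 60.3 in round spermatids and 42.5 ± 8.99 in spermatocytes (3.01 ± 0.13) and another at 57.5 ± 4.42 in round spermatids and 438 ± 64.3 in spermatocytes (-2.62 ± 0.12). Socs7, of the suppressor of cytokine signalling family, had one at 10511 ± 1221 in round spermatids and 1581 ± 113 in spermatocytes (2.72 ± 0.10) and one at 483 ± 24.3 in round spermatids and 2253 ± 328 in spermatocytes (-2.17 ± 0.12). Gid4, a subunit of a ubiquitin ligase complex, ran from -2.17 to 2.64 over 7 probe sets. The Afap1 probe sets quoted, and those at the ends of the Gid4 range, were dim in the group where they were lower. Their direction may thus have been set by the choice of probe sets tested. Mtfr1, Rnf138, Eif4e, Afap1, Socs7 and Gid4 are not counted among the 232 named genes. Of those 232, 76 had another probe set tested. It was called in the opposite direction in 7, each stated where the gene is described, and not called in 9.

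**Figure D4:**
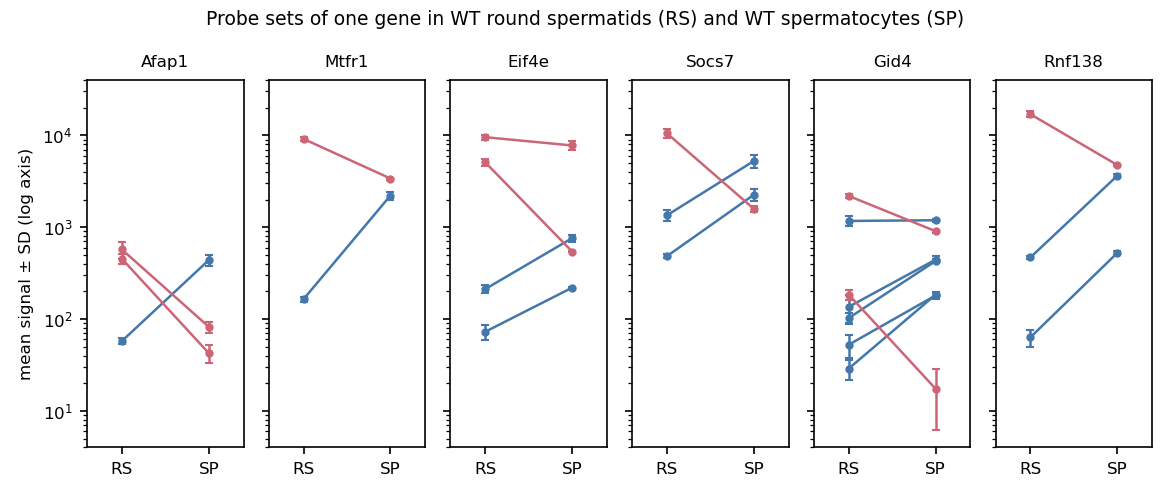
Mean signal with SD (log axis) of each tested probe set (line) of 6 genes in WT round spermatids (RS, n = 3) and WT spermatocytes (SP, n = 4). Red lines are probe sets higher in round spermatids and blue lines are lower. Every gene shown has lines of both colours.

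The same stage change was measured in KO mice, which lack GRTH. The label was checked by Ddx25, whose signal was 4596, 4241 and 3865 in KO round spermatids, against 18439, 16166 and 15473 in WT round spermatids. It was 3000.4, 2989.8, 3278 and 3048 in KO spermatocytes, against 16792, 15363, 14474 and 12998 in WT spermatocytes. Every KO array was below every WT array. Its 1 probe set was not placed relative to the deletion.

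Across 9097 genes tested on these 14 arrays the KO and WT stage changes had a correlation of 0.948, a description across genes, which are not independent. The median change was -0.09 in KO and -0.24 in WT. It was 1.83 in KO and 1.55 in WT over 173 X-linked genes, and 1.97 in KO and 2.06 in WT over 18 elongating spermatid markers. The stage change differed between genotypes in 4197 genes (46.1%), and by at least 2-fold in 251 (2.76%). With the close arrays averaged 1743 genes differed.

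Of the 5 largest differences 4 were greater rises, or a smaller fall, in KO cells. Nrip2, a nuclear receptor partner, had 2996, 3619.5 and 906 in KO round spermatids and 224, 250.3, 79.2 and 74.8 in KO spermatocytes, against 345, 369 and 132 in WT round spermatids and 312, 130.2, 313 and 282 in WT spermatocytes (KO minus WT difference 3.75 ± 0.76, adjusted p = 0.00133). Round spermatid array 3 was the lowest of its group in both genotypes. Rab6b, a Rab protein of Golgi traffic, had a difference of 2.73 ± 0.41 (adjusted p = 0.000143), and Pik3cd, a catalytic subunit of PI 3-kinase, one of 2.40 ± 0.49 (0.00148). Rrp9, of ribosome assembly, had 439, 391 and 568 in KO round spermatids and 498, 464, 418 and 531 in KO spermatocytes, against 68.1, 34.3 and 347 in WT round spermatids and 547, 541, 501 and 591 in WT spermatocytes. Its difference (2.23 ± 0.63, adjusted p = 0.0111) was lost with the close arrays averaged (adjusted p = 0.174). Dscaml1, a cell adhesion gene, had 5.67, 6.60 and 3.05 in KO round spermatids and 3.69, 5.80, 2.96 and 2.92 in KO spermatocytes, against 2111, 2083 and 2327 in WT round spermatids and 205, 191, 179 and 219 in WT spermatocytes (-3.27 ± 0.11, adjusted p = 1.67e-09). It rose in WT cells and stayed below a signal of 7 on every KO array.

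**Figure D5:**
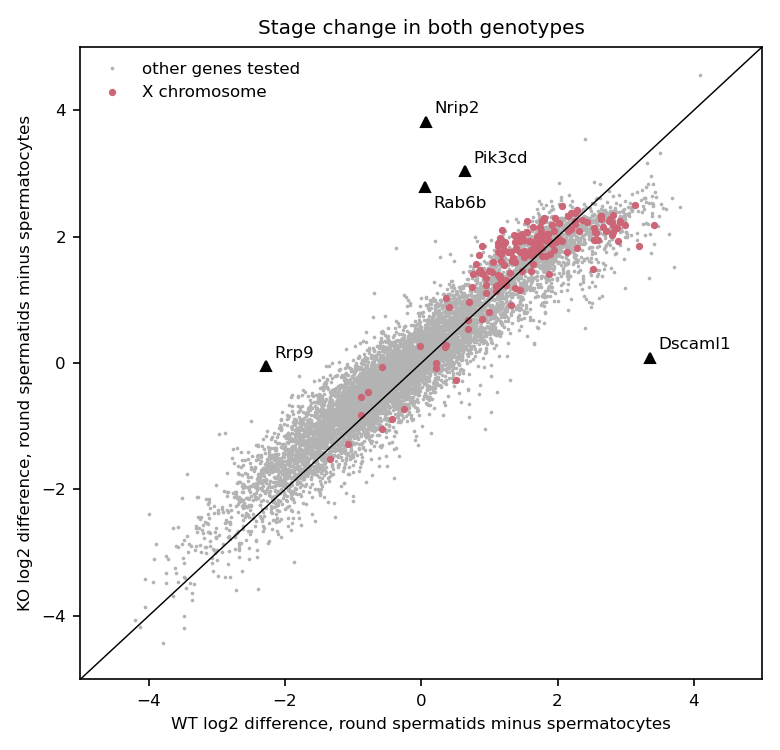
Stage change (log2 difference, round spermatids minus spermatocytes) in WT mice (x axis) and KO mice (y axis) for each gene tested, with X-linked genes in red, the 5 genes of largest difference as triangles, and a line of equal change. The X-linked medians were 1.83 in KO and 1.55 in WT, so most red points lie at positive values in both genotypes.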

How the data were processed

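RNA of WT round spermatids (3 arrays) and WT spermatocytes (4 arrays) was analysed. The deposited values are signal intensities on a linear scale, made by the authors with GCOS, the array maker's software, per the submitters' processing notes; its version was not given in the sources used here. The trimmed mean of these arrays was 500 as deposited. Levels of different probe sets are not comparable, and the small number of arrays limits the precision.

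Of 45101 probe sets, 34945 carried 1 gene symbol in the platform's annotation, 932 several and 9160 none, and 64 controls were left out. Entrez IDs matched RefSeq for 34741. Where several probe sets named 1 of the 18193 genes, the one with the highest mean log2 signal over the 28 arrays was kept. The pseudocount was 16, and genes whose mean signal reached the median (171) were tested. Differences were tested with limma 3.58.1 (lmFit, eBayes, R 4.3.3, with the data.table package in version 1.17.8), two-sided, adjusted by Benjamini-Hochberg at 0.05, and checked on simulated data. Every adjusted p is limma's. Gene lists are described by counts and medians beside those of all genes, with no set test. The genotype difference was an interaction term over 14 arrays. Python 3.11.15, pandas 2.3.3, numpy 2.4.6 and matplotlib 3.10.9 served for data handling and plots.

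Named genes were the 15 largest rises and falls among genes past the threshold whose groups did not overlap, with Ddx25 and Crem. Members of fixed lists, with at least the 4 of smallest p in each, were named as well. So were the 5 X-linked and 5 Y-linked genes of smallest p, and the 5 largest genotype differences. A further 6 genes with opposed probe sets are not counted among the 232. The members and lists were chosen with earlier results of these data known. Alternatives covered normalization, pseudocount, filter, probe set choice, the replicate number as a block, averaging of close arrays and leaving out arrays. Deviations from the group means ran together in arrays of 1 number (correlations of 0.249, 0.197 and 0.186 for numbers 1 to 3), a pairing that comes from the data, not the labels.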

Additional observations from a re-analysis of the deposited data

Results flagged for a closer look

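Among the 232 named genes, 8 (3.45%) had 1 spermatocyte array far from the other 3, judged by its gap to the nearest of them as a share of the group's range. Chance alone gives this in about 1 of 20 groups. Lyz1 had a share of 0.938, with its highest array at 40.0. The lowest array stood apart for Creb1 (0.928, at 393), Slc5a9 (0.903, at 60.2), H2ax (0.864, at 3531), Syce2 (0.859, at 4245), Hormad1 (0.846, at 3216) and Dmc1 (0.83, at 127). For Siah1a the highest array stood apart (0.841, at 2138). Groups of 3 were not tested.

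The stage change differed between KO and WT mice, by the interaction test, most for 5 genes. KO minus WT was 3.75 for Nrip2 (adjusted p = 0.00133), -3.27 for Dscaml1 (1.67e-09), 2.73 for Rab6b (0.000143), 2.40 for Pik3cd (0.00148) and 2.23 for Rrp9 (0.0111).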

How the results depend on the processing

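Of 171 alternative values for 10 counts, 163 were within 1.5 times the reported one, and of 4456 for 237 genes, 4431 kept direction and call. With no filter on dim genes 5937 genes were higher, 3017 at least 2-fold, with 355 X-linked genes higher and 16 lower. With a minimum mean signal of 500, which tests fewer genes, 88 X-linked genes were higher and 2 lower, and 269 genes had opposed probe sets. With close arrays averaged the genotypes differed in 1743 genes, and Rrp9 (1.89), Utp14b (0.23), Brdt (0.26) and Mylk (-0.35) lost their calls. Mylk and Brdt lost theirs also with only spermatocyte arrays 3 and 4 (-0.25 and 0.18), Mylk with the mean of all probe sets (-0.24) and Brdt with median centring (0.16). The cause was not tested. With the replicate number as a block 7992 genes were called between the stages, and 4975 differed between genotypes. The block added calls for Hspa2 (-0.25) and Tbpl1 (0.14) and changed no other call of a named gene. Leaving out 1 array at a time gave 7727 to 8013 genes called, 3209 to 3336 higher, 4507 to 4677 lower, 4161 to 4252 at least 2-fold, 152 to 154 X-linked genes higher, 9 lower, and 3745 to 4499 differing between genotypes.

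Quantile normalization turned the sign of 751 genes (8.26%), and in 0 of these was the reported change at least 2-fold. Among named genes it reversed Ddx25 (-0.46), Tbpl1 (-0.39), Rpl35 (-0.02), Brdt (-0.19), Ldhc (-0.05) and Pgam2 (-0.10) and ended the call of Mylk (-0.01). Of the 1902 genes that rose and 2313 that fell at least 2-fold, 1802 and 1898 did so under it too. The direction of the 751 thus depends on the scaling, and changes of dim genes are understated by the pseudocount.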

Other observations

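Genes of either direction had overlapping genomic spans. The median genomic span was 21.5 kb for genes that rose at least 2-fold (quartiles 7.29 and 54.6 kb), 23.7 kb for genes that fell at least 2-fold (11.2 and 50.7 kb) and 22 kb for the other genes tested (9.41 and 49.9 kb). Spans were known for 99.8% or more of each set.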
